A study of Mus musculus with 24 samples.

Results

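The subject is a set of 187 mouse genes whose transcripts were lower in epiblast stem cells (EpiSCs) than in embryonic stem (ES) cells and were higher again in 1 EpiSC line that overexpressed Sox2 while it was kept in EpiSC medium. They were selected on the authors' deposited log2 values from 16593 genes with a probe on the array. A member had to be at least 1.5 log2 units higher in ESCm than in EpiSCm, at least 1.5 higher in ESCf than in EpiSCf, and at least 0.8 higher in EpiSox2mL2 than in EpiSCm, and both ESCm arrays had to detect it at a detection p under 0.01. The ES conditions were met by 465 genes, 16 of which met the gain as well but belonged to families or named genes that the selection left out, such as the Dppa, Rhox, Klf, Dnmt and Slc genes. The 249 ES genes that stayed below the gain threshold serve as a comparison set. On the deposited scale the gain was 0.81 for Six4, 0.82 for Acer2 and 0.82 for Emp1, the last members inside the threshold, and 0.77 for Pim3, 0.79 for Fbln2 and 0.80 for Scmh1, the first genes outside it. On the normexp scale used below, which compresses differences between dim probes, 87 of the 187 genes would meet the same thresholds, and with a gain threshold of 1.0 on the deposited values 142 would remain.

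Expression was measured on 24 Illumina BeadChip arrays of total RNA, 2 replicate arrays in each of 12 groups. The labels do not say whether replicates came from separate cultures, so p-values measure the spread between these arrays, which may be technical. ESCm and ESCf are male and female ES cells, the latter of the OG2 background. EpiSCm is a male EpiSC line of the GOF18 background and EpiSCf a female line of OG2. EpiSox2mL2 is the GOF18 EpiSC overexpressing Sox2 in EpiSC medium, and EpiSox2mE1 and EpiSox2mE2 are the corresponding cells in ESC medium, which the labels call ESC like. The ES and EpiSC markers given below do not bear out that name. Epi-Sox2f is the OG2 EpiSC overexpressing Sox2. F9 EC and P19 EC are male embryonal carcinoma lines, and F9-Sox2 and P19-Sox2 are the same lines overexpressing Sox2. The promoter that drives Sox2 and the number of clones behind each line are not given in the sources used here.

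ES cells are derived from the preimplantation embryo and are held in a naive state by LIF, which acts through STAT3, and by a network of transcription factors that includes the Klf proteins, Esrrb, Tbx3 and Nr5a2. EpiSCs are derived from the postimplantation epiblast, depend on FGF and Activin, and have switched off much of that network together with many germ-line and early-embryo genes. Sox2 is a transcription factor with an HMG box that pairs with Oct4 on composite DNA sites of pluripotency genes, among them the enhancer of Fgf4, and it is expressed in both cell types. Embryonal carcinoma cells are the stem cells of teratocarcinomas: F9 cells resemble an early inner cell mass or primitive ectoderm and P19 cells a later epiblast.

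All values below are log2 intensities after background removal with the normexp model and quantile normalization, where a level near 4.5 is that of an undetected probe. Array medians of the raw intensity were 90.2 to 101 on the 8 arrays of EpiSCm, EpiSox2mL2, EpiSox2mE1 and EpiSox2mE2 and 119 to 152 on the other 16, so ESCm and EpiSCm differ in this respect while every tested comparison stays within a set. Replicate arrays correlated at 0.985 to 0.995. Both arrays detected 6 of 6 ES markers in ESCm, 0 of 6 in EpiSCf and 3 of 6 in EpiSCm, and 5 of 6 EpiSC markers in each of EpiSCf and EpiSCm. The ES markers present in EpiSCm were Esrrb (7.62 and 7.92), Dppa5a (9.41 and 9.06) and Zfp42 (6.32 and 6.17), so the male EpiSC line from which the gain was counted was not free of ES markers. In EpiSox2mL2 both arrays detected 5 of 6 ES markers and 4 of 6 EpiSC markers. In the ESC-medium cultures they detected 2 of 6 ES markers in EpiSox2mE1, 3 of 6 in EpiSox2mE2 and 6 of 6 EpiSC markers in each. Esrrb was nevertheless above EpiSCm in all of these groups, at 11.31 and 11.09 in EpiSox2mL2, 9.09 and 8.87 in EpiSox2mE1 and 9.78 and 9.36 in EpiSox2mE2. Fgf5 stood at 10.31 and 10.69 in EpiSCm and at 7.99 and 8.0 in EpiSox2mL2, and was above 10.5 on all 4 arrays in ESC medium. The kept Sox2 probe gave 8.45 and 8.21 in EpiSCm, 9.21 and 9.30 in EpiSox2mL2, 9.45 and 9.56 in EpiSox2mE1 and 9.59 and 9.65 in EpiSox2mE2. It was higher in F9-Sox2 (10.72 and 10.59) than in F9 EC (9.48 and 9.42) and in P19-Sox2 (9.83 and 9.63) than in P19 EC (8.94 and 8.88). It was no higher on the arrays labelled Epi-Sox2f (8.89 and 8.73) than in EpiSCf (8.96 and 9.03). A second Sox2 probe gave 9.19 and 8.83 in EpiSCf and 7.93 and 7.82 in Epi-Sox2f, 4.66 and 4.86 in EpiSCm and 5.54 and 5.62 in EpiSox2mL2, and did not separate F9-Sox2 from F9 EC (9.44 and 9.50 against 9.51 and 9.28) or raise P19-Sox2 over P19 EC (7.87 and 7.99 against 8.20 and 8.43).

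Detection set out the pattern of the 187 genes over the 12 groups. Both arrays detected all 187 in ESCm, as the selection demands, 178 in ESCf, 143 in EpiSox2mL2, 61 in EpiSCm and 36 in EpiSCf. In ESC medium the number was 85 for EpiSox2mE1 and 87 for EpiSox2mE2, and on the arrays labelled Epi-Sox2f it was 44. Among the carcinoma lines, which took no part in the selection, 115 were detected in F9 EC and 125 in F9-Sox2, against 66 in P19 EC and 69 in P19-Sox2. In bulk RNA, fewer cells with a transcript and less of it in each cell cannot be told apart.

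**Figure D1:**
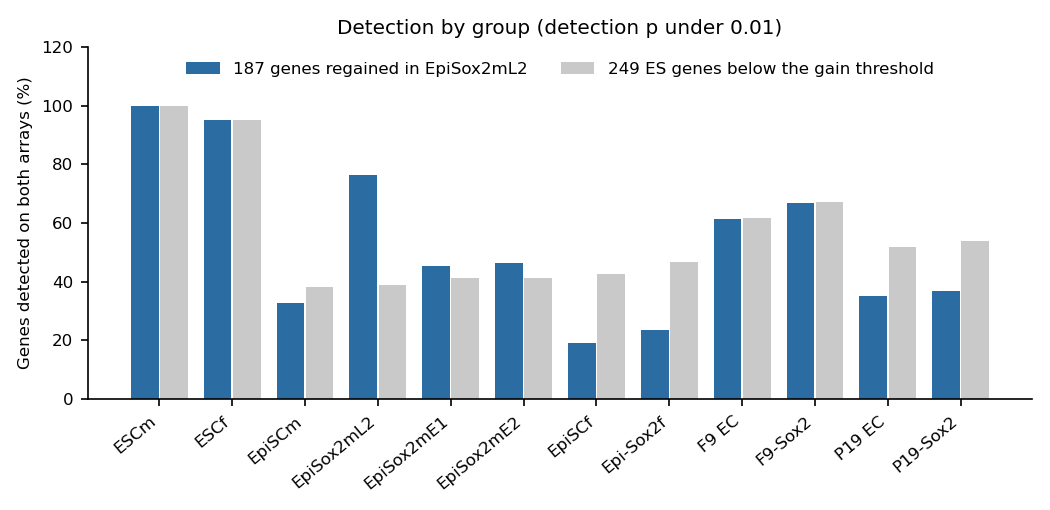
Share of genes detected on both arrays of each group at a detection p under 0.01, for the 187 genes regained in EpiSox2mL2 (blue) and the 249 ES genes below the gain threshold (grey). The blue bars reach 76.5% in EpiSox2mL2 and are at 45.5% and 46.5% in the ESC-medium cultures, while the grey bars stay between 38.2% and 41.4% over EpiSCm and the 3 male Sox2 groups.

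The gain in EpiSox2mL2 was partial for most members. These values share the arrays that chose the members and are given without a test. On the normexp scale the median difference from EpiSCm was 0.87 (0.35 without background correction and 1.36 on the deposited values, alternatives read for this difference after seeing the data), and 79 of 187 members stood at least 1 log2 unit higher, against 3.19% of all 8894 tested genes, a share that the selection fixes. Both EpiSox2mL2 arrays lay above both EpiSCm arrays for 175 members, a count that the gain threshold on these same arrays largely fixes. The share over all tested genes is not given here, so nothing is read from that count. The line closed a median 41.8% of the log2 gap between EpiSCm and ESCm (quartiles 27.4% and 58.6%), closed at least 50% of it for 72 members and all of it for 8. These percentages count from the EpiSCm reading to the ESCm reading, and 102 members were detected on no EpiSCm array, where the true gap is known only as a lower bound. Over the 61 members detected on both EpiSCm arrays the median was 46.5%. For 44 members at least 1 EpiSox2mL2 array did not detect the transcript, and 24 were detected on neither, so the word regained holds for these only as a rise close to background. All 187 members passed the filter on dim probes, because the selection required detection in ESCm.

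The 12 largest gains on the deposited values were in genes of varied function, several of them of the germ line. This order depends on the scale. On the normexp scale Gstp2, Fmr1nb, Dpp4, Laptm5 and Pla2g1b still led. There Tex14 (1.86), Khdc3 (1.79), Piwil2 (1.64), Zscan4c (1.28) and Taf7l (1.16) differed less from EpiSCm than 5 genes outside the 12. These were Acta2 (2.45), Mvp (2.22), Gadd45g (2.18), Gab1 (2.14) and Mt1 (2.11). Fmr1nb, a cancer-testis antigen, gave 4.60 and 4.57 in EpiSCm, 7.73 and 8.05 in EpiSox2mL2, 4.74 and 5.32 in EpiSox2mE1, 4.89 and 4.61 in EpiSox2mE2 and 6.40 and 6.28 in ESCm, so EpiSox2mL2 exceeded the male ES cells, although ESCf was higher still at 11.02 and 10.82. Dpp4, a cell-surface dipeptidyl peptidase also known as CD26, gave 4.81 and 4.51 in EpiSCm, 7.95 and 7.87 in EpiSox2mL2, 4.63 and 4.83 in EpiSox2mE1, 7.10 and 6.71 in EpiSox2mE2 and 8.38 and 8.61 in ESCm. Gstp2, a glutathione S-transferase, gave 5.77 and 5.07 in EpiSCm, 8.91 and 9.11 in EpiSox2mL2, 4.63 and 4.92 in EpiSox2mE1, 6.05 and 5.95 in EpiSox2mE2 and 8.28 and 8.54 in ESCm. In all of these EpiSox2mL2 came close to ESCm or passed it, and EpiSox2mE1 lay at or near the EpiSCm level. Laptm5, a lysosomal membrane protein of haematopoietic cells, gave 6.07 and 6.45 in EpiSCm, 9.39 and 9.42 in EpiSox2mL2, 5.63 and 5.65 in EpiSox2mE1, 6.33 and 6.44 in EpiSox2mE2 and 11.68 and 11.59 in ESCm. Pla2g1b, a secreted phospholipase A2, gave 6.40 and 6.06 in EpiSCm, 8.99 and 8.90 in EpiSox2mL2, 6.17 and 5.91 in EpiSox2mE1, 8.18 and 8.57 in EpiSox2mE2 and 10.70 and 10.71 in ESCm. The transcript 2210409E12Rik gave 4.51 and 4.56 in EpiSCm, 6.15 and 6.36 in EpiSox2mL2, 4.54 and 4.48 in EpiSox2mE1, 4.83 and 4.65 in EpiSox2mE2 and 11.73 and 11.63 in ESCm, which leaves EpiSox2mL2 far below ESCm. In Laptm5 and Pla2g1b too, EpiSox2mL2 lay between EpiSCm and ESCm.

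The remaining members with the 12 largest deposited gains were mostly genes of male germ cells or of the oocyte and early embryo. Tex14, which forms the intercellular bridges of male germ cells, gave 4.74 and 4.53 in EpiSCm, 6.49 and 6.51 in EpiSox2mL2, 4.43 and 4.51 in EpiSox2mE1, 4.75 and 4.71 in EpiSox2mE2 and 7.62 and 7.77 in ESCm. Khdc3, a component of the oocyte's subcortical maternal complex, gave 4.85 and 4.71 in EpiSCm, 6.56 and 6.59 in EpiSox2mL2, 4.87 and 4.79 in EpiSox2mE1, 4.60 and 5.07 in EpiSox2mE2 and 8.06 and 8.08 in ESCm. Piwil2, a PIWI protein that binds piRNAs, gave 4.75 and 4.63 in EpiSCm, 6.51 and 6.15 in EpiSox2mL2, 5.09 and 4.51 in EpiSox2mE1, 4.97 and 5.70 in EpiSox2mE2 and 7.60 and 7.71 in ESCm. These were undetected in EpiSCm, clearly present in EpiSox2mL2 and at or near background in the ESC-medium cultures. Map10, a microtubule-associated protein, gave 4.94 and 5.06 in EpiSCm, 6.90 and 6.95 in EpiSox2mL2, 4.89 and 4.64 in EpiSox2mE1, 4.98 and 5.90 in EpiSox2mE2 and 6.94 and 6.75 in ESCm, which puts EpiSox2mL2 level with ESCm. Taf7l, a germ-cell paralogue of a TFIID subunit, gave 4.37 and 4.39 in EpiSCm, 5.54 and 5.53 in EpiSox2mL2, 4.54 and 4.43 in EpiSox2mE1, 4.85 and 4.62 in EpiSox2mE2 and 6.06 and 6.01 in ESCm. Zscan4c, a gene of the 2-cell embryo that ES cells express in bursts, gave 4.42 and 4.51 in EpiSCm, 5.38 and 6.10 in EpiSox2mL2, 4.32 and 4.41 in EpiSox2mE1, 4.54 and 4.56 in EpiSox2mE2 and 8.34 and 8.46 in ESCm. Taf7l and Zscan4c were detected in EpiSox2mL2 and in ESCm but on no array of the other groups shown. Of the next 8 by gain, Enox1, Fam25c, Cdyl2, Pramel13, Gfod1, Mvp, Zfp819 and AU018091, Mvp, the major vault protein, differed most from EpiSCm on the normexp scale, by 2.22, and Cdyl2, a chromodomain protein undetected in EpiSCm, was at least 1.6-fold higher.

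**Figure D2:**
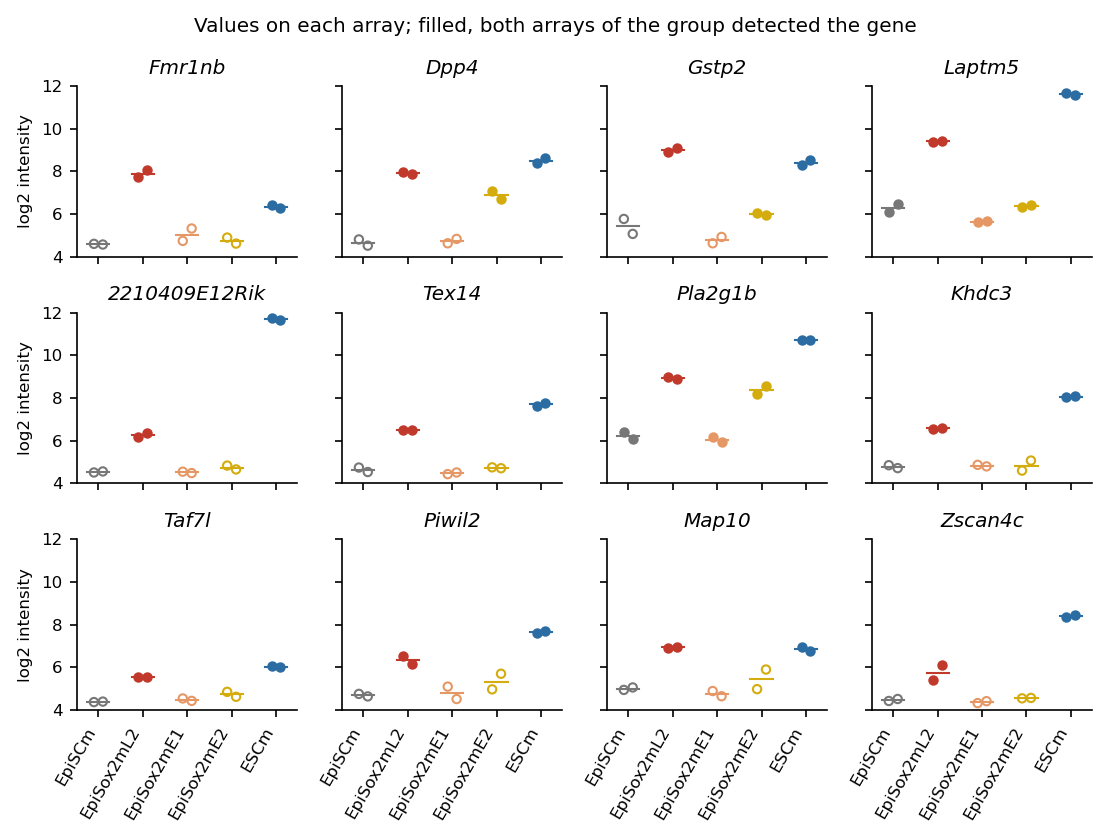
log2 intensity on each array (points) and group mean (lines) for the 12 members with the largest deposited gain, in EpiSCm, EpiSox2mL2, the ESC-medium cultures EpiSox2mE1 and EpiSox2mE2, and ESCm. Filled points mark groups in which both arrays detected the gene: EpiSox2mL2 and ESCm are filled in all 12 panels, and Dpp4, Pla2g1b and Gstp2 are the panels in which EpiSox2mE2 stands well above EpiSox2mE1.

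By known role, 133 of the 187 members were placed in 8 groups and 54 were left unplaced. Of 18 germ-line and early-embryo genes, 1 was detected on both arrays in EpiSCm, 13 in EpiSox2mL2, 3 in EpiSox2mE1 and 4 in EpiSox2mE2, and 18 of 18 in ESCm by selection. Besides those above, the group holds Stag3, a meiotic cohesin subunit (1.62 above EpiSCm), Clgn, a testis chaperone (at least 1.71-fold higher), Tdrd12, a Tudor protein of the piRNA pathway (1.29), and Dazl, an RNA-binding protein of germ cells, which was undetected in both EpiSCm and EpiSox2mL2. Zp3, which encodes a protein of the egg coat, Tcstv3, expressed at the 2-cell stage, and Tuba3b, a tubulin of the testis, were also members. Tuba3b was at least 1.29-fold higher, while Zp3 and Tcstv3 lay too near background in both groups for a fold.

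Of 18 pluripotency and transcription factors, 7 were detected in EpiSCm and 14 in EpiSox2mL2. Tbx3, a T-box factor of the naive network, read 4.59 and 4.51 in EpiSCm, 5.94 and 5.62 in EpiSox2mL2 and 9.99 and 9.90 in ESCm, and was undetected in EpiSCm. Nr5a2, an orphan nuclear receptor that can sustain Oct4 expression, read 6.11 and 5.88 in EpiSox2mL2 and 7.83 and 8.12 in ESCm, and Tcl1, an Akt coactivator, read 5.79 and 6.02 in EpiSox2mL2 and 9.96 and 10.12 in ESCm. The share of the gap closed was 22.7% for Tbx3, 18.7% for Tcl1 and 40.2% for Nr5a2. Fbxo15, a ubiquitin-ligase adaptor that marks ES cells, closed 41.4%, close to Nr5a2. Larger shares were closed by Tfap2c, an AP-2 factor of trophoblast and germ cells (55.4%), and Bcl3, an NF-kB cofactor and STAT3 target (74.3%). The naive factors Tbx3 and Tcl1 stood far lower in EpiSox2mL2 than in ESCm, at -4.16 and -4.14 log2 units from it.

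Of 20 growth factors, receptors and signalling proteins, 9 were detected in EpiSCm and 19 in EpiSox2mL2. Fgf4, the FGF that ES cells secrete, read 6.67 and 6.39 in EpiSCm, 8.41 and 8.58 in EpiSox2mL2 and 8.79 and 8.63 in ESCm, a closure of 90.2%. Gab1, a docking protein of receptor tyrosine kinases, read 8.75 and 9.06 in EpiSCm, 11.01 and 11.09 in EpiSox2mL2 and 12.04 and 12.13 in ESCm. Gadd45g, a stress-response protein, read 6.58 and 6.48 in EpiSCm, 8.75 and 8.68 in EpiSox2mL2 and 9.58 and 9.44 in ESCm. Most of the gap was also closed by Wnt7b, a Wnt ligand (80.3%), Plpp3, a lipid phosphate phosphatase (90.4%), and Nupr1, a stress-induced nuclear protein (96.6%). Pim1, a STAT3-induced kinase, was detected on no array of EpiSCm or EpiSox2mL2.

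The other groups followed the same course to different extents. All 10 cytoskeletal and contractile genes were detected in EpiSox2mL2 and 5 of them in EpiSCm, the brightest being Acta2, smooth-muscle actin, at 8.56 and 8.81 in EpiSCm, 11.20 and 11.07 in EpiSox2mL2 and 11.38 and 11.34 in ESCm. Of 15 matrix and cell-surface genes 5 were detected in EpiSCm and 11 in EpiSox2mL2, of 12 genes of innate immunity 4 and 7, of 16 chromatin and zinc-finger genes 8 and 10, and of 24 genes of stress, metal and metabolism 9 and 20. Mt1, a metallothionein that binds zinc and copper, was the brightest member, at 12.13 and 12.36 in EpiSCm and 14.30 and 14.40 in EpiSox2mL2. The galectin Lgals3 read 6.82 and 6.89 in EpiSCm, 8.53 and 8.64 in EpiSox2mL2 and 10.97 and 11.03 in ESCm. Probe sequences were not used here, so members of families with near-identical copies, such as Gstp2, Zscan4c, H3c3, Tuba3b, the metallothioneins and the clustered Zfp genes, cannot be told apart from those copies.

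Matrix and contractile members include transcripts of fibroblasts. Of 14 fibroblast and feeder-cell markers measured, both arrays detected 9 in ESCm, 5 in EpiSCm, 5 in EpiSox2mL2, 6 in EpiSox2mE1 and 5 in EpiSox2mE2. Their summed log2 level was 92.6 to 93.6 in ESCm, 82.5 to 83.1 in EpiSCm, 84.5 to 86.9 in EpiSox2mL2 and 85.2 to 89.7 over the ESC-medium cultures. Col1a2, Postn, Lum and Pdgfrb were detected on no array of any group. Among the members on that list, Col1a1, a chain of type I collagen, gave 4.76 and 4.87 in EpiSCm, 6.06 and 4.99 in EpiSox2mL2, 5.94 and 5.92 in EpiSox2mE1 and 5.66 and 6.85 in EpiSox2mE2, with 1 high array in EpiSox2mL2 and 1 in EpiSox2mE2. The part of such cells in the values of Col1a1 and Acta2 was not tested. Neural markers (6 measured) were detected for 1 gene in each of these groups, extraembryonic endoderm markers (9 measured) for 5 in EpiSCm and 4 in EpiSox2mL2, and trophoblast markers (10 measured) for 2 in EpiSCm, 1 in EpiSox2mL2 and 4 in each ESC-medium culture.

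A RefSeq promoter sequence was found for 143 of the 187 members, in 186 windows from 250 bases before to 50 bases after a transcript start (build GRCm38.p6). Sox2 and Oct4 bind DNA side by side, so the windows were searched on both strands for the octamer ATGCAAAT, bound by Oct4 and other POU proteins, and for the Sox core CATTGT, which can share up to 3 bases where one follows the other. The octamer occurred in 6 of 186 member windows (3.2%), in 2 of 254 windows of the ES genes below the gain threshold (0.8%) and in 121 of 9322 windows of the tested genes (1.3%). The Sox core occurred in 14 member windows (7.5%), against 5.5% and 7.0%. The members with an octamer were Cdx2, Clca3b, Gadd45g, Tnc and Zfp296. These counts are a description of letters in a short window. Members had a median of 12 CpG dinucleotides per window, against 16 in the comparison set and 20 over the tested genes. The 250 bases upstream of 4 members are shown, 3 with an octamer and Dpp4, which holds a Sox core and had one of the largest gains. Capitals mark the octamer or the Sox core on either strand. The windows are, for Gadd45g, chr13:51846425-51846674 on the plus strand; for Zfp296, a zinc-finger factor of ES cells, chr7:19577037-19577286 on the plus strand; for Cdx2, chr5:147307250-147307499 on the minus strand; and for Dpp4, chr2:62412232-62412481 on the minus strand.
Gadd45g: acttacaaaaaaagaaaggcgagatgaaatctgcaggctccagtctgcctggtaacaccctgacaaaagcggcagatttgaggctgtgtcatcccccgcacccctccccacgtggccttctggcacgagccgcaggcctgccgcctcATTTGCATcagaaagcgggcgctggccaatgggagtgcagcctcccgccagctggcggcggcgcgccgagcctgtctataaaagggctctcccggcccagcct
Zfp296: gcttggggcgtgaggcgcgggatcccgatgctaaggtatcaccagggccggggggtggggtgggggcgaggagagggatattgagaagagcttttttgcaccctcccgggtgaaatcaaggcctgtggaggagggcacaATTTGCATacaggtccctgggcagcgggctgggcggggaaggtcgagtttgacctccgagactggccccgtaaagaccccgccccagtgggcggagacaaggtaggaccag
Cdx2: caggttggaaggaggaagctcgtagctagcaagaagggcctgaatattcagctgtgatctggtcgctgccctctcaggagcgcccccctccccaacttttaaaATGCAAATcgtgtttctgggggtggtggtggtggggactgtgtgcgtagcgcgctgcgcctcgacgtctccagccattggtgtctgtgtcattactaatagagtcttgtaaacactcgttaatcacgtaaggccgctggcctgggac
Dpp4: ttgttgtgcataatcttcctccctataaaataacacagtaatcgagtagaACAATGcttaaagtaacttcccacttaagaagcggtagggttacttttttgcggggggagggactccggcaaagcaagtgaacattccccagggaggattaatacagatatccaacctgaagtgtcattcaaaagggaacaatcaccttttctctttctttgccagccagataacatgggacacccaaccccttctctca

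The cultures in ESC medium are described against the same reference groups. Whether they come from the same clone as EpiSox2mL2 is not given, so medium and clone cannot be told apart in these comparisons. EpiSox2mE1 stood at a median 13.2% and EpiSox2mE2 at a median 15.2% of the gap between EpiSCm and ESCm, or 17.1% and 20.4% over the members detected in EpiSCm. Against EpiSCm, 35 members stood at least 1 log2 unit higher in EpiSox2mE1 (background 3.61% of tested genes) and 36 in EpiSox2mE2 (background 3.18%), and 25 did so in both (background 2.15%). Against EpiSox2mL2, 54 members stood at least 1 log2 unit lower in EpiSox2mE1 (background 6.09%) and 8 higher (background 2.78%). In EpiSox2mE2 the counts were 48 lower (background 6.98%) and 6 higher (background 2.75%), and 40 were lower in both cultures (background 4.88%). These comparisons use the EpiSCm or EpiSox2mL2 arrays on which the members were selected, so a lower value in any other culture is in part fixed by the selection. Of the 249 ES genes below the gain threshold, 22 stood at least 1 log2 unit higher and 6 lower in EpiSox2mE1 than in EpiSox2mL2. The values are given without a test and nothing is read from the counts about the members as a set.

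The 40 members lower in both ESC-medium cultures than in EpiSox2mL2 included 6 of 18 germ-line genes, 6 of 10 cytoskeletal genes and 0 of 18 pluripotency and transcription factors. These role counts also rest on arrays used by the selection, and nothing is read from them about a role. Gab1 fell short of EpiSox2mL2 by most among the signalling genes, with differences of -3.17 in EpiSox2mE1 and -2.78 in EpiSox2mE2, which put it below EpiSCm. Wnt7b was at least 3.5-fold and at least 3.52-fold lower than in EpiSox2mL2 and was detected on no array in ESC medium. Fgf4 was -1.87 and -1.40 from it, and Fabp3, a fatty-acid binding protein, -2.07 and -2.84. In 22 members both EpiSox2mL2 arrays and no array of EpiSCm, EpiSox2mE1 or EpiSox2mE2 detected the transcript, among them Fmr1nb, Tex14, Khdc3, Taf7l, Zscan4c and Tcl1. The share of all tested genes with this pattern is not given here, and the selection used the EpiSox2mL2 and EpiSCm arrays. Of all tested genes, both arrays detected 83.6% in EpiSox2mL2, 81.0% in EpiSCm, 78.7% in EpiSox2mE1 and 77.7% in EpiSox2mE2.

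The 25 members that stood at least 1 log2 unit above EpiSCm in both ESC-medium cultures included 6 of the 18 pluripotency and transcription factors, a count with the same limit. Tfap2c read 8.33 and 8.25 in EpiSCm, 10.04 and 10.22 in EpiSox2mL2, 10.77 and 10.71 in EpiSox2mE1 and 10.61 and 10.67 in EpiSox2mE2. Fbxo15 read 7.78 and 7.69 in EpiSCm, 9.40 and 9.71 in EpiSox2mL2, 9.32 and 9.73 in EpiSox2mE1 and 9.42 and 9.42 in EpiSox2mE2. Both therefore stood at the EpiSox2mL2 level or slightly above it in the ESC-medium cultures. Acta2 read 10.49 and 10.04 in EpiSox2mE1 and 10.25 and 10.08 in EpiSox2mE2, between EpiSCm and EpiSox2mL2. Among the 25, 6 were also at least 1 log2 unit higher in both ESC-medium cultures than in EpiSox2mL2: Bgn, a small matrix proteoglycan (2.74 in EpiSox2mE1 and 3.16 in EpiSox2mE2), Tnc, tenascin C (1.45 and 1.43), Cdx2, a homeobox factor of trophoblast and hindgut (at least 2.43-fold and at least 2.04-fold higher, being undetected in EpiSox2mL2), Bcl6, a transcriptional repressor (1.34 and 1.21), Rbm47, an RNA-binding protein (1.17 and 1.19), and Olig1, a bHLH factor (1.34 and 1.01). Of the LIF and STAT3 genes, Pim1 read 4.57 and 4.37 in EpiSCm, 6.05 and 6.75 in EpiSox2mE1 and 5.97 and 5.88 in EpiSox2mE2, and Bcl3 read 6.20 and 5.77 in EpiSCm, 7.68 and 7.36 in EpiSox2mE1 and 7.42 and 7.32 in EpiSox2mE2. Cdx2 is on the trophoblast list, whose summed log2 level was 51.1 to 52.3 in EpiSCm, 53.7 to 53.9 in EpiSox2mL2 and 57.5 to 59.4 in the ESC-medium cultures, where Elf5, Hand1, Esx1 and Plac1 were undetected.

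The ESC-medium cultures could be compared with each other by a test, because neither took part in the selection. Limma's test called 13 members higher in EpiSox2mE2 than in EpiSox2mE1 (background 1.12% of 8894 genes) and 8 lower (background 1.26%), which is 6.95% and 4.28% of the members, with adjusted p from 8e-08 to 0.045. Pla2g1b rose most, from 6.17 and 5.91 in EpiSox2mE1 to 8.18 and 8.57 in EpiSox2mE2, a difference of 2.33 (SE 0.17, 5.04-fold). Dpp4 followed, from 4.63 and 4.83 in EpiSox2mE1 to 7.10 and 6.71 in EpiSox2mE2, which is at least 2.71-fold. Tdrd12 rose from 6.37 and 6.54 in EpiSox2mE1 to 8.33 and 7.85 in EpiSox2mE2. In Tdrd12 EpiSox2mE2 was level with EpiSox2mL2, and in Pla2g1b and Dpp4 it lay between EpiSox2mE1 and EpiSox2mL2. Gadd45g rose from 6.11 and 5.79 in EpiSox2mE1 to 7.32 and 7.41 in EpiSox2mE2. The naive factor Nr5a2 rose from 4.43 and 4.47 in EpiSox2mE1 to 5.69 and 5.61 in EpiSox2mE2, at least 1.14-fold, and was detected on neither EpiSox2mE1 array. Gstp2 (at least 1.44-fold), Zp3 (at least 1.19-fold), Cpsf4l, a relative of a polyadenylation factor (log2 difference 0.88), Laptm5 (0.74), Krt17, an epithelial keratin (0.70), and Manba, the lysosomal beta-mannosidase (0.70), were higher as well. Tcl1 and AI467606 were also called, but no array of either culture detected them, so no change in level is stated.

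In the other direction, Tbx3 read 5.40 and 5.64 in EpiSox2mE1 and 4.80 and 4.55 in EpiSox2mE2. It was detected on 1 EpiSox2mE1 array and on 0 EpiSox2mE2 arrays. The opposite signs of the naive factors Tbx3 and Nr5a2 thus rest on values near background. Mt1 read 14.44 and 14.57 in EpiSox2mE1 and 13.46 and 13.88 in EpiSox2mE2, a fall of 0.83. Capn1, a calcium-dependent protease, read 5.86 and 5.63 in EpiSox2mE1 and 4.58 and 4.87 in EpiSox2mE2. Zfp951, a zinc-finger gene, read 5.75 and 5.69 in EpiSox2mE1 and 4.72 and 4.74 in EpiSox2mE2. Capn1 and Zfp951 were near background in EpiSox2mE2. The remaining falls were in Htra1, a secreted serine protease (-0.81), Rgcc, a regulator of the cell cycle (-0.78), and Fabp3 (-0.77). Pstpip1, an adaptor of the actin cytoskeleton, was called lower on values below detection in both cultures. The counts were 4 up and 5 down under median scaling, which moves the median of all genes from -0.01 to -0.19, 4 down without background correction and 2 down without EpiSox2mE1 replicate 2. With only these 4 arrays in the fit, limma called 2 genes up and 0 down, against 24 up and 13 down at an unadjusted p under 0.05. The calls of Pla2g1b and Dpp4 held under every alternative.

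**Figure D3:**
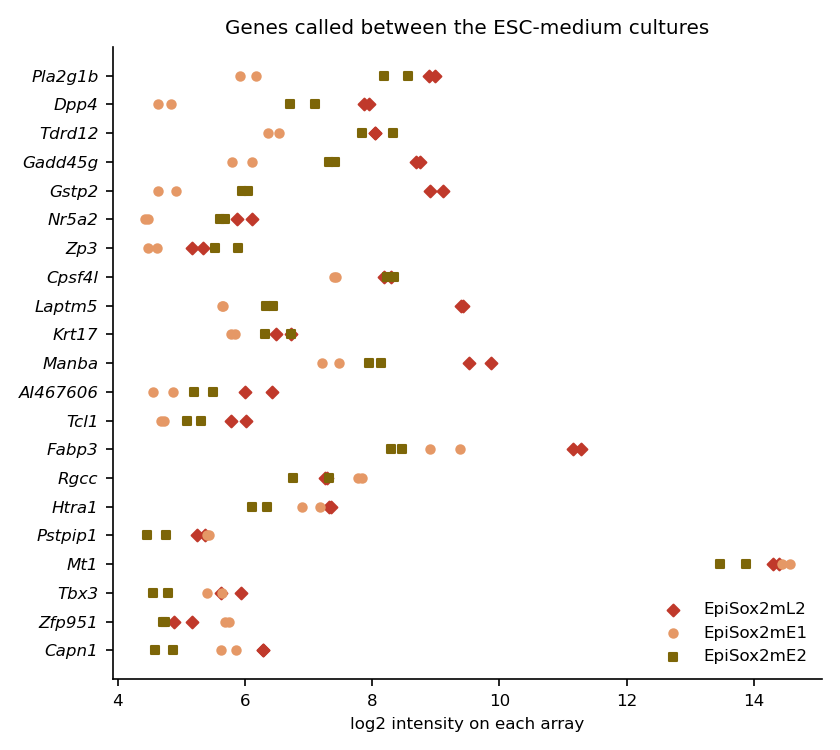
log2 intensity on each array for the 21 members called between EpiSox2mE1 (circles) and EpiSox2mE2 (squares), with the EpiSox2mL2 arrays (diamonds) beside them. In Tdrd12 the EpiSox2mE2 arrays lie at the EpiSox2mL2 level, whereas in Fabp3, Laptm5 and Gstp2 both cultures lie well below it.

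The female line labelled as overexpressing Sox2 did not show the male line's pattern in these values, which share the EpiSCf arrays of the selection and are untested. The median difference of Epi-Sox2f from EpiSCf was 0.08, with 6 members at least 1 log2 unit higher (3.21%, background 2.27%) and 2 lower. Acta2 stood out, at 5.22 and 5.20 in EpiSCf and 9.24 and 9.13 in Epi-Sox2f. Folr1, a folate receptor, was at least 2.31-fold higher, Dkk3, a secreted relative of Wnt inhibitors, at least 2.48-fold, Laptm5 at least 1.61-fold and Irak2, a kinase of Toll-like receptor signalling, at least 1.97-fold, all being undetected in EpiSCf. Lgals3 was undetected in both. Msc, a bHLH repressor, and Jade1, a chromatin-reader protein, differed by -1.06 and -1.33. Fmr1nb, the top gain of the male line on the deposited values, was undetected at 4.47 and 4.54, and Dpp4 was undetected at 4.62 and 4.50. The summed log2 level of the 14 fibroblast markers, Acta2 among them, was 80.3 to 80.8 in EpiSCf and 88.2 to 88.9 in Epi-Sox2f, with Col1a1, Col1a2, Col3a1, Postn, Lum, S100a4 and Pdgfrb undetected in both, and its part in the Acta2 value was not tested.

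F9 carcinoma cells gave a test of Sox2 overexpression on arrays that played no part in choosing the genes. Limma's test called 38 of 187 members higher in F9-Sox2 than in F9 EC (20.3%, background 5.39%) and 16 lower (8.56%, background 4.37%), with adjusted p from 4e-09 to 0.042. No array of F9 EC or F9-Sox2 detected 4 of the called genes (Accsl, Cdx2, 4930447C04Rik and Dctn1), so for these a call is reported but no change in level. The median difference over members was 0.11, against 0.0 over all genes. Of the 249 ES genes below the gain threshold, 34 (13.7%) were called higher and 14 (5.62%) lower. Without F9 EC replicate 1, F9 EC replicate 2 or F9-Sox2 replicate 2 the count of higher members was 24, 22 and 22, and on the deposited values it was 25 higher and 8 lower. The lower count was 6 without F9 EC replicate 1 or F9-Sox2 replicate 2 and 8 without either of the other arrays.

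Signalling genes formed the largest role group among the rises in F9-Sox2, with 8 of 20 higher and 1 lower. Wnt7b read 4.78 and 5.01 in F9 EC and 7.41 and 7.55 in F9-Sox2, at least 3.35-fold (log2 2.58, SE 0.20). Dner, a transmembrane Notch ligand, read 5.10 and 4.77 in F9 EC and 7.19 and 6.88 in F9-Sox2, at least 2.46-fold. Htra1 read 7.95 and 7.56 in F9 EC and 8.95 and 9.09 in F9-Sox2, a rise of 1.26. Neither Wnt7b nor Dner was detected on an F9 EC array, and both arrays of F9-Sox2 detected them. Tgfbr2, the type II receptor for TGF-beta, read 4.93 and 5.01 in F9 EC and 6.19 and 5.99 in F9-Sox2. Amhr2, the receptor for anti-Mullerian hormone, read 7.13 and 6.90 in F9 EC and 7.79 and 8.03 in F9-Sox2. Notum, an enzyme that inactivates Wnt proteins, read 8.46 and 8.22 in F9 EC and 9.31 and 9.02 in F9-Sox2. Amhr2 and Notum were already detected in F9 EC, whereas Tgfbr2 was not. Pdgfa, a platelet-derived growth factor chain, read 10.90 and 11.01 in F9 EC and 11.62 and 11.71 in F9-Sox2. Eng, a TGF-beta coreceptor, read 4.69 and 4.52 in F9 EC and 5.48 and 5.70 in F9-Sox2, detected on a single F9-Sox2 array. Plpp3 fell by 0.66, from 10.53 and 10.27 in F9 EC to 9.81 and 9.67 in F9-Sox2.

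Of 18 transcription factors 6 were called higher and 1 lower, 1 of the 6 being Cdx2, which was not detected. Tfap2c read 10.15 and 10.26 in F9 EC and 11.85 and 11.94 in F9-Sox2, 3.23-fold (log2 1.69, SE 0.14). Sox15, a relative of Sox2 that ES cells express, read 5.81 and 6.13 in F9 EC and 7.24 and 7.46 in F9-Sox2. Arntl, the clock factor BMAL1, read 7.73 and 7.38 in F9 EC and 8.52 and 8.44 in F9-Sox2. All of these were detected in both groups and rose on both arrays. Msc, the bHLH repressor musculin, read 10.84 and 10.62 in F9 EC and 11.60 and 11.46 in F9-Sox2, and Rfx2, a factor of ciliated and male germ cells, 9.51 and 9.65 in F9 EC and 9.93 and 10.23 in F9-Sox2. Cdx2 read 4.75 and 4.97 in F9 EC and 5.24 and 5.49 in F9-Sox2 and stayed undetected on all 4 arrays. Tbx3 fell by 0.60, from 10.29 and 10.47 in F9 EC to 9.79 and 9.77 in F9-Sox2, so a naive factor moved against the others.

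Germ-line genes rose in 5 of 18 cases and fell in 0 by limma's adjusted p (6 and 1 at an unadjusted p under 0.05). Tdrd12 read 7.15 and 6.89 in F9 EC and 8.50 and 8.55 in F9-Sox2, 2.84-fold (SE of the log2 difference 0.16). Tex14 read 5.97 and 6.56 in F9 EC and 7.09 and 7.28 in F9-Sox2. Zp3 read 7.16 and 7.31 in F9 EC and 7.86 and 7.75 in F9-Sox2. The lowest F9-Sox2 array exceeded the highest F9 EC array in each of these. Pramel13, of the Prame family, read 5.44 and 5.70 in F9 EC and 6.42 and 6.12 in F9-Sox2, at least 1.45-fold, and Spats1, a testis gene, read 4.88 and 4.85 in F9 EC and 5.22 and 5.74 in F9-Sox2, near the limit of detection.

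Cytoskeletal genes were called in both directions, 3 of 10 higher and 3 lower, 1 of the latter being the undetected Dctn1. Krt17 read 9.04 and 9.42 in F9 EC and 10.57 and 10.73 in F9-Sox2, a rise of 1.42. Alpk3, a kinase of muscle, read 5.52 and 4.92 in F9 EC and 6.24 and 6.44 in F9-Sox2, and Myl4, a myosin light chain, 8.34 and 8.20 in F9 EC and 8.80 and 9.0 in F9-Sox2. Among the falls, Prph, the intermediate filament peripherin, read 5.73 and 5.89 in F9 EC and 4.73 and 4.71 in F9-Sox2, close to background. Septin1, a GTP-binding septin, read 9.13 and 8.99 in F9 EC and 8.55 and 8.67 in F9-Sox2. Dctn1, a dynactin subunit, read 5.75 and 5.46 in F9 EC and 4.95 and 5.11 in F9-Sox2 and was undetected throughout.

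Among genes of stress, metal and metabolism 3 of 24 rose and 3 fell. Fabp3 had the largest rise of all members, from 8.03 and 7.77 in F9 EC to 10.50 and 10.58 in F9-Sox2, a difference of 2.64 (SE 0.16, 6.24-fold, limma adjusted p = 4e-09). Acer2, an alkaline ceramidase, read 6.37 and 5.89 in F9 EC and 7.52 and 7.43 in F9-Sox2, and Gstp2 read 6.68 and 6.53 in F9 EC and 7.39 and 7.68 in F9-Sox2. Both arrays of F9-Sox2 were above both of F9 EC in each. Kdelr3, a receptor that returns proteins to the endoplasmic reticulum, read 7.92 and 8.21 in F9 EC and 6.75 and 6.59 in F9-Sox2. Tgm1, an epidermal transglutaminase, read 8.99 and 8.82 in F9 EC and 8.21 and 8.12 in F9-Sox2, and Pla2g1b 10.72 and 10.86 in F9 EC and 10.24 and 10.13 in F9-Sox2. Pla2g1b, a gene of large gain in EpiSox2mL2, was thus lower with Sox2 in F9 cells.

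Matrix and surface genes had 1 rise and 2 falls among 15. Dpp4 read 5.47 and 6.34 in F9 EC and 6.87 and 7.26 in F9-Sox2, a rise of 1.16. Aqp3, a water and glycerol channel, had the largest fall of all members, from 7.91 and 7.79 in F9 EC to 6.46 and 5.96 in F9-Sox2, 3.12-fold lower (log2 -1.64, SE 0.19). Lgals3 read 11.10 and 10.91 in F9 EC and 10.31 and 10.46 in F9-Sox2. 

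All 5 calls among the 16 chromatin and zinc-finger genes in F9-Sox2 were falls, with 1 rise and 7 falls at an unadjusted p under 0.05. Zfp979 read 9.72 and 9.80 in F9 EC and 8.49 and 8.46 in F9-Sox2. Its neighbour on chromosome 4, the zinc-finger gene Zfp985, read 8.84 and 8.89 in F9 EC and 8.13 and 7.87 in F9-Sox2. Zfp655 read 9.81 and 9.81 in F9 EC and 9.09 and 9.17 in F9-Sox2. These zinc-finger genes stayed clearly detected in F9-Sox2. The histone gene H3c3 read 7.33 and 7.21 in F9 EC and 5.88 and 6.59 in F9-Sox2. Rlim, a ubiquitin ligase that acts in X inactivation, read 6.25 and 6.54 in F9 EC and 5.97 and 5.44 in F9-Sox2. Among 12 genes of innate immunity Gsdmd, the pore-forming gasdermin D, was called, at 6.05 and 5.34 in F9 EC and 6.53 and 6.37 in F9-Sox2.

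Unplaced members made up 11 further calls of a higher level, 2 of them below detection, and 1 of a lower level. Ly6g6e, of the Ly6 surface family, read 5.28 and 5.34 in F9 EC and 7.42 and 7.13 in F9-Sox2, at least 2.9-fold. Cpsf4l read 8.03 and 7.88 in F9 EC and 9.78 and 9.51 in F9-Sox2, and Tbc1d8, which has a Rab-GAP domain, 5.07 and 4.94 in F9 EC and 6.25 and 6.49 in F9-Sox2. AU018091 read 5.85 and 6.17 in F9 EC and 7.43 and 7.20 in F9-Sox2. Ly6g6e and Tbc1d8 rose from below detection, Cpsf4l and AU018091 from a detected level. Pip5k1b, a phosphoinositide kinase, read 5.27 and 4.93 in F9 EC and 6.15 and 6.47 in F9-Sox2. Adap1, an Arf GTPase activator, read 6.54 and 6.56 in F9 EC and 7.29 and 7.56 in F9-Sox2, and Phf11d, a PHD-finger gene, 7.21 and 7.18 in F9 EC and 8.24 and 7.93 in F9-Sox2. Chst8, a sulfotransferase, read 5.36 and 5.52 in F9 EC and 6.09 and 6.25 in F9-Sox2. The smallest of these rises, in Rpp25, a subunit of RNase P, was 0.39, from 9.90 and 9.95 in F9 EC to 10.33 and 10.30 in F9-Sox2. Accsl read 4.47 and 4.50 in F9 EC and 5.53 and 5.21 in F9-Sox2 and 4930447C04Rik 4.47 and 4.63 in F9 EC and 5.49 and 5.39 in F9-Sox2, both undetected on all 4 arrays. Tmem38b, an intracellular cation channel, fell, from 9.74 and 9.56 in F9 EC to 9.27 and 8.97 in F9-Sox2. Of the 54 calls in F9 cells, 17 held under every alternative that gave a value: the higher calls of Accsl (undetected), Acer2, Alpk3, Cpsf4l, Dner, Fabp3, Htra1, Krt17, Ly6g6e, Sox15, Tbc1d8, Tdrd12, Tfap2c, Tgfbr2 and Wnt7b and the lower calls of Aqp3 and Zfp979.

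P19 carcinoma cells gave the same test in a second line. There 17 members were called higher in P19-Sox2 than in P19 EC (9.09%, background 5.95%) and 13 lower (6.95%, background 4.54%), with adjusted p from limma of 3.8e-12 to 0.042. The median difference over members was 0.02. Both shares were little above the background. Of the ES genes below the gain threshold 27 (10.8%) were higher and 14 (5.62%) lower. The counts were 7 higher and 8 lower without P19 EC replicate 1 and 9 higher without P19-Sox2 replicate 2, and 11 higher with only the 4 P19 arrays in the fit.

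Acta2 changed by far the most. It read 6.64 and 6.64 in P19 EC and 10.66 and 10.99 in P19-Sox2, a rise of 4.19 (SE 0.15, 18.2-fold). Over the 14 fibroblast markers, which include Acta2, the summed log2 level was 81.1 to 81.5 in P19 EC and 85.1 to 85.3 in P19-Sox2, with Col1a1, Col1a2, Col3a1, Postn, S100a4, Lum, Tagln and Pdgfrb detected on no array of either. The rise of 4.19 in Acta2 is itself part of that sum, so the sum is no separate measure of such cells. Their part in the Acta2 value was not tested. Plpp3 read 7.77 and 8.01 in P19 EC and 9.17 and 9.23 in P19-Sox2, and Dpysl3, a cytoskeletal regulator of growing neurons, 4.99 and 5.69 in P19 EC and 6.60 and 6.57 in P19-Sox2. Rpp25 read 6.70 and 6.55 in P19 EC and 7.79 and 7.85 in P19-Sox2. In each of them the P19-Sox2 arrays were clearly the higher pair. Chst8 read 5.73 and 5.64 in P19 EC and 6.70 and 6.82 in P19-Sox2, Clgn 5.64 and 5.95 in P19 EC and 6.94 and 6.75 in P19-Sox2 and Tmem79, a membrane protein of the epidermis, 5.79 and 6.47 in P19 EC and 6.89 and 7.33 in P19-Sox2. Gadd45g rose from below detection, at 5.23 and 5.50 in P19 EC and 6.21 and 6.29 in P19-Sox2, at least 1.49-fold. Igfbp7, a secreted IGF-binding protein, read 4.67 and 4.81 in P19 EC and 5.36 and 6.12 in P19-Sox2, with 1 array well above the other. Nupr1 read 7.96 and 7.87 in P19 EC and 8.56 and 8.87 in P19-Sox2. Irak3, an inhibitor of Toll-like receptor signalling, read 5.93 and 6.0 in P19 EC and 6.63 and 6.99 in P19-Sox2, and Arntl 6.14 and 6.32 in P19 EC and 7.23 and 6.82 in P19-Sox2. Among the smaller rises, Fabp3 read 10.53 and 10.40 in P19 EC and 11.04 and 11.06 in P19-Sox2, Rfx2 5.68 and 5.33 in P19 EC and 6.15 and 6.10 in P19-Sox2 and the transporter gene Flvcr2 5.75 and 5.61 in P19 EC and 6.27 and 6.06 in P19-Sox2. Gfod1 read 4.88 and 4.69 in P19 EC and 5.38 and 5.97 in P19-Sox2, and Cdkn2b, the cell-cycle inhibitor p15, 4.68 and 4.87 in P19 EC and 5.50 and 5.53 in P19-Sox2, both at or near background and Cdkn2b detected on no array.

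The falls in P19-Sox2 were led by Cdx2. It read 7.69 and 7.66 in P19 EC and 4.87 and 4.65 in P19-Sox2, at least 4.24-fold lower (log2 -2.92, SE 0.14). The trophoblast list to which it belongs summed to 60.6 to 61.7 in P19 EC and 56.6 to 57.8 in P19-Sox2, with Elf5, Hand1, Esx1, Plac1 and Krt7 undetected in both. Lgals3 read 10.21 and 10.29 in P19 EC and 7.85 and 8.22 in P19-Sox2, a fall of 2.21, and Ccdc3, a secreted protein, 7.98 and 8.12 in P19 EC and 6.26 and 5.94 in P19-Sox2. Cdx2 was lost to background, whereas Lgals3 stayed clearly detected. Msc read 6.72 and 6.65 in P19 EC and 4.98 and 5.07 in P19-Sox2, at least 2.13-fold lower, and Dennd2c, which has a DENN domain for Rab proteins, 7.18 and 7.02 in P19 EC and 6.32 and 5.83 in P19-Sox2. Fbxo15, on the naive list, read 6.92 and 6.54 in P19 EC and 5.83 and 5.65 in P19-Sox2. Bmp4, a ligand that acts with LIF in ES cells, read 7.01 and 7.13 in P19 EC and 6.18 and 6.05 in P19-Sox2. Gsdmd read 5.96 and 5.77 in P19 EC and 4.88 and 4.85 in P19-Sox2. Gm128 read 6.14 and 6.13 in P19 EC and 5.23 and 5.18 in P19-Sox2, and like Gsdmd was undetected in P19-Sox2. Hspb1, a small heat-shock protein, read 9.48 and 9.42 in P19 EC and 8.63 and 9.13 in P19-Sox2. Ubxn2a read 5.78 and 5.92 in P19 EC and 5.34 and 5.10 in P19-Sox2, Pla2g1b 5.30 and 5.67 in P19 EC and 4.72 and 4.68 in P19-Sox2 and Cd55, a complement regulator, 5.12 and 5.35 in P19 EC and 4.57 and 4.62 in P19-Sox2, all close to background and Cd55 detected on no array. Of the 30 calls in P19 cells, 13 held under every alternative: the rises of Acta2, Chst8, Dpysl3, Gadd45g, Plpp3 and Rpp25 and the falls of Ccdc3, Cdx2, Dennd2c, Fbxo15, Gm128, Lgals3 and Msc.

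The F9 and P19 comparisons share no array. Of 187 members 73 were called in at least 1 of them and 11 in both. The shares of all tested genes called in either or in both are not given here. These counts are therefore no result about the members as a set. Rfx2, Fabp3, Rpp25, Arntl and Chst8 were higher in both, Pla2g1b and Lgals3 lower in both, and Plpp3, Msc and Gsdmd in opposite directions. Cdx2, called lower in P19-Sox2, was also called in F9 cells but on values below detection, which give it no direction there. The difference of the Sox2 effects, tested as an interaction, was called for 42 members, 14 with the larger value in P19 cells (7.49%, background 5.17%) and 28 with the larger value in F9 cells (15%, background 4.86%). The count of 14 was 9 without either F9 EC array. The most extreme values of this difference were 4.06 for Acta2 (SE 0.22) and -3.42 for Cdx2 (SE 0.20). For Wnt7b it was -2.52, and Wnt7b read 4.45 and 4.57 in P19 EC and 4.51 and 4.64 in P19-Sox2.

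**Figure D4:**
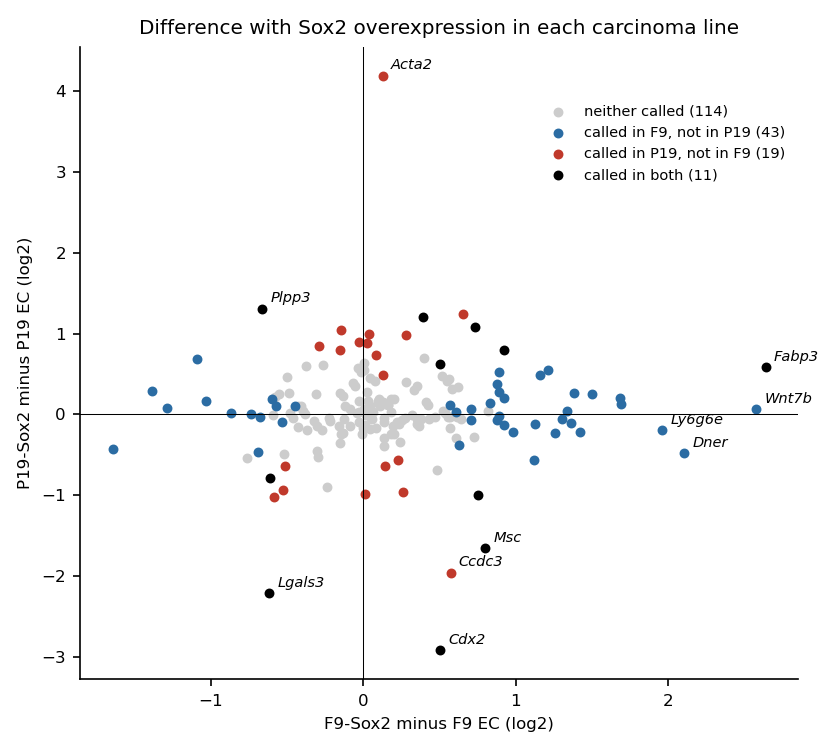
log2 difference with Sox2 overexpression in F9 cells (horizontal) and in P19 cells (vertical) for each of the 187 members, blue where limma called it in F9 cells only, red in P19 cells only, black in both and grey in neither. Wnt7b, Dner, Ly6g6e and Fabp3 lie far to the right with vertical values under 0.6, and Acta2 and Cdx2 lie at the top and bottom near the middle of the horizontal axis.

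Without Sox2 overexpression, the carcinoma lines differed widely in these genes. In P19 EC 108 members were lower than in F9 EC (57.8%, background 27.1%) and 17 higher (9.09%, background 28.1%), by limma's test with adjusted p of at most 0.05, and the median difference was -1.05 against 0.0 over all genes. Of the ES genes below the gain threshold 102 (41%) were lower and 37 (14.9%) higher. Laptm5 read 11.90 and 11.99 in F9 EC and 4.61 and 4.43 in P19 EC, at least 77.1-fold lower. Tcl1 read 12.18 and 12.12 in F9 EC and 4.53 and 4.59 in P19 EC, at least 88.8-fold lower, and Nr5a2 read 10.51 and 10.29 in F9 EC and 4.70 and 4.80 in P19 EC, at least 26.4-fold lower. These naive and lysosomal genes were thus undetected in P19 EC. Fam25c read 11.16 and 11.21 in F9 EC and 4.98 and 5.11 in P19 EC, Pla2g1b 10.72 and 10.86 in F9 EC and 5.30 and 5.67 in P19 EC and Enox1, a plasma-membrane oxidase, 9.99 and 10.13 in F9 EC and 5.16 and 5.26 in P19 EC. All of these were bright in F9 EC and at or near background in P19 EC. Fbxo15 differed by -4.04, Tbx3 by -2.94, and Fgf4 by -1.66, all lower in P19 EC. Pim1 was at least 1.39-fold and Bcl3 at least 3.9-fold lower in P19 EC, where both were undetected, and Acta2 was at least 1.88-fold higher there, being undetected in F9 EC. Of the called members 4, Zfp951, Mapt, Hs3st1 and Six4, were detected in neither parent line, and no change in level is stated for them. By role, 16 of 24 genes of stress, metal and metabolism were lower (median -1.66), 12 of 20 signalling genes (median -1.43) and 13 of 18 pluripotency and transcription factors (median -1.48), but 6 of 18 germ-line genes (median -0.27). Many germ-line members, among them Fmr1nb, Taf7l and Zscan4c, were undetected in both lines. Of the 26 calls among the 20 members of largest gain and the members on a gene list, 25 held under every alternative and that of Tcstv3 did not.

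**Figure D5:**
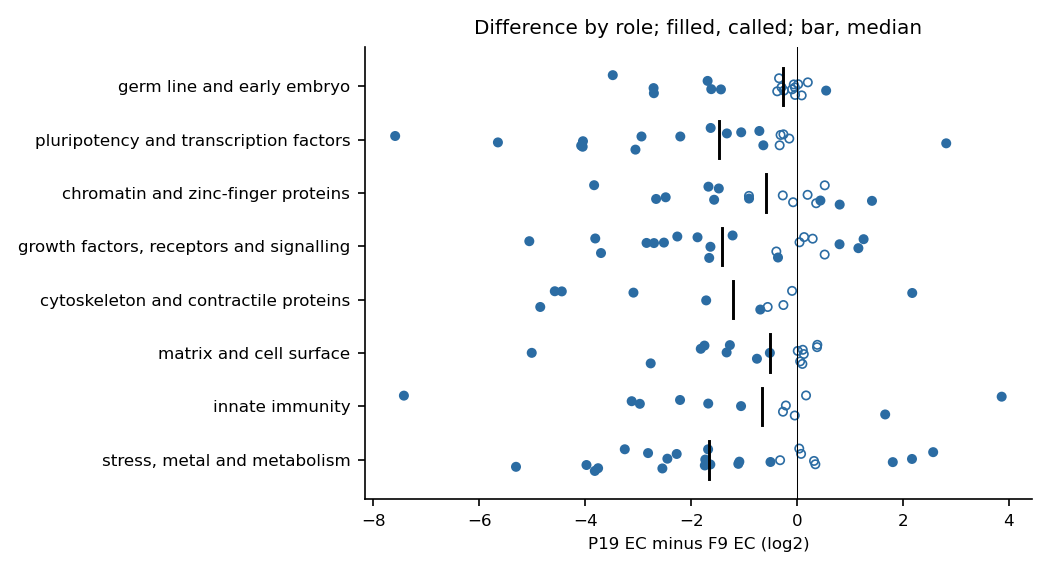
log2 difference between P19 EC and F9 EC for the 133 members with an assigned role, one point per gene, filled where limma called it; bars mark the median of each role. The median lies below 0 in all 8 roles, from -1.66 for stress, metal and metabolism to -0.27 for germ line and early embryo, whose uncalled genes cluster at 0.

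Gene lists chosen around these processes, which hold members and non-members, gave the following counts of genes called by limma in the F9, P19 and ESC-medium comparisons. Over all tested genes the shares called higher and lower were 5.39% and 4.37% in F9-Sox2, 5.95% and 4.54% in P19-Sox2, 28.1% and 27.1% in P19 EC against F9 EC and 1.12% and 1.26% between the ESC-medium cultures, and counts of a few genes near these shares are no result about a list. Where a list gave 0 calls in both directions, at most 2 of its genes passed an unadjusted p under 0.05. Of 18 naive pluripotency genes tested, 6 of them members, 2 rose and 1 fell in F9-Sox2, and 4 rose and 2 fell in P19-Sox2. In EpiSox2mE2 against EpiSox2mE1, 3 were called higher and 1 lower. The higher calls include Tcl1, which no array of either culture detected. In P19 EC 15 of the 18 were lower than in F9 EC (median -3.49). Of 11 core pluripotency genes 1 rose in F9-Sox2 and 2 in P19-Sox2, none of them members, 0 were called between the ESC-medium cultures, and 3 were higher and 6 lower in P19 EC. Of 16 germ-line genes 3 rose in F9-Sox2, 2 fell in P19-Sox2, 2 rose in EpiSox2mE2, and 4 were higher and 3 lower in P19 EC. Of 6 genes of the 2-cell-like state 1 rose in F9-Sox2, 0 were called in P19-Sox2 or between the ESC-medium cultures, and 1 was higher in P19 EC. The 13 LIF and STAT3 genes gave 2 rises in F9-Sox2, 1 rise and 1 fall in P19-Sox2, 0 calls in ESC medium and 10 genes lower in P19 EC. Of 10 genes of threonine and one-carbon metabolism, none of them a member, 0 were called in F9-Sox2, 3 rose and 1 fell in P19-Sox2, 0 were called in ESC medium and 1 was lower in P19 EC. Of 15 genes on the epithelial adhesion list 4 rose and 1 fell in F9-Sox2, 9 rose and 3 fell in P19-Sox2 (median 0.68), 1 fell in EpiSox2mE2, and 5 were higher and 3 lower in P19 EC. That list was drawn up with the mesenchymal genes Cdh2, Zeb1, Zeb2, Snai1 and Snai2 on it as well. Its counts are therefore not a measure of epithelial adhesion in one direction. The 6 cytoskeletal genes gave 0 calls in F9-Sox2, 2 rises in P19-Sox2, 0 calls in ESC medium, and 3 higher and 2 lower in P19 EC.

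Chromosome 7 carried 27 of the 187 members (14.4%), against 7.9% of the tested genes, chromosome 4 carried 17 (9.1% against 6.6%) and chromosome 5 carried 16 (8.6% against 6.5%). In RefSeq gene order, 6 pairs of members were next to each other among the tested genes: Mt2 and Mt1 on chromosome 8, Zfp985 and Zfp979 on 4, Chrna9 and Rbm47 on 5, Arntl and Btbd10 and also Mylpf and Septin1 on 7, and 4930447C04Rik and Six4 on 12. Other probes gave a partial check of the gain: 35 members had another kept probe, and 16 of 45 such probes reached 0.8 in the deposited values for EpiSox2mL2 against EpiSCm, or 13 of the 20 that both EpiSox2mL2 arrays detected. The 2 other kept probes of Tfap2c gained 1.79 and 2.27, the 3 other Acta2 probes 1.23 to 2.76, and that of Fmr1nb 0.30. Against the gain, 9 of the 45 were negative, among them the 3 other probes of Terf2ip, a telomere protein (-1.08, -0.32 and -0.20), and that of Mpv17l, a mitochondrial or peroxisomal protein (-0.40). The Terf2ip probes at -1.08 and -0.32 were detected on no EpiSox2mL2 or EpiSCm array. The Terf2ip probe at -0.20 and the Mpv17l probe were detected on all of them. Those of Nr5a2 read 0.04 and 0.40 and that of Tcl1 0.46, none of them detected on an EpiSox2mL2 array.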

How the data were processed

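Total RNA (300 ng) was amplified and hybridised for 18 h to Illumina MouseRef-8 BeadChips, per the labels' protocols. The authors deposited the raw probe intensity of each array with a detection p-value, and separately log2 values that share 1 distribution over all arrays, as quantile normalization gives. BeadStudio 3.2, lumi and RMA appear in the submitters' processing notes, without a role. The background step is not given in the sources used here.

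The deposited log2 values chose the genes, with 1 probe per gene, the one with the highest mean; of 25697 probes 23978 had a gene name. The members, roles and lists were chosen with earlier results of these data known. For all other values the intensities were corrected with the normexp model of limma 3.58.1 (neqc, offset 16, background inferred from detection p-values), quantile normalized and put on the log2 scale in R 4.3.3. A probe was kept if some group had a detection p under 0.01 on its 2 arrays, which left 8894 genes. One limma model with 12 group means over 24 arrays (12 residual degrees of freedom) was fitted with moderated variances; a gene was called at a Benjamini-Hochberg adjusted p under 0.05. The procedure was tested on simulated data. Comparisons that use ESCm, ESCf, EpiSCm, EpiSCf or EpiSox2mL2 arrays share them with the selection and are given without tests. Where no array of a group detected a gene, "at least N-fold" sets the brighter group's mean against the higher of the gene's own level and the lowest detected level on each array. Genes were named if they had one of the 20 largest gains, stood on a list or were called in a Sox2 comparison or between the ESC-medium cultures; others are named as extremes, as members of a class or as flagged by the interaction test, and were chosen after their values were seen. Only 2 arrays per group limit the precision.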

Additional observations from a re-analysis of the deposited data

Results flagged for a closer look

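The effect of Sox2 overexpression differed between P19 and F9 cells for 42 of the 187 genes, by limma's interaction test on arrays that did not choose the genes. Values are the log2 difference in P19 cells minus that in F9 cells, and positive values mean a more positive difference in P19 cells. Groups of 2 arrays are too small for a test of single outlying arrays.

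Acta2 had the largest positive value, 4.06, from a difference of 4.19 in P19 cells and 0.13 in F9 cells, where it was undetected. Plpp3 (1.97) rose in P19-Sox2 and fell in F9-Sox2. Prph (1.78), Kdelr3 (1.67), Zfp979 (1.37), Aqp3 (1.22), Zfp985 (0.89) and Tbx3 (0.79) were called lower in F9-Sox2 and not called in P19-Sox2. Clgn (1.20), Irak3 (1.14) and Gadd45g (0.86) were called higher in P19-Sox2 and not in F9-Sox2. Rpp25 (0.81) rose in both lines, by more in P19 cells. Hsd17b1, a steroid dehydrogenase (0.96), and Dpp7, a lysosomal peptidase (0.75), were called in neither line alone.

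Cdx2 had the largest negative value, -3.42: it fell in P19-Sox2 and was undetected in F9 cells. Msc (-2.45) and Gsdmd (-1.75) were called lower in P19-Sox2 and higher in F9-Sox2, and Fabp3 (-2.06) rose in both lines, by more in F9 cells. Called higher in F9-Sox2 and not in P19-Sox2 were the signalling genes Dner (-2.58), Wnt7b (-2.52), Tgfbr2 (-1.68), Htra1 (-1.50) and Pdgfa (-0.77), the transcription factors Tfap2c (-1.57) and Sox15 (-1.12), the germ-line genes Tdrd12 (-1.25) and Tex14 (-1.06), the cytoskeletal genes Krt17 (-1.63), Alpk3 (-1.24) and Myl4 (-1.0), and Ly6g6e (-2.15), Cpsf4l (-1.48), Tbc1d8 (-1.47), AU018091 (-1.36), Acer2 (-1.30) and Accsl (-0.95), the last undetected in both lines. Called lower in P19-Sox2 and not in F9-Sox2 were Ccdc3 (-2.53), Bmp4 (-1.22), Fbxo15 (-0.99), Hspb1 (-0.80) and Ubxn2a (-0.78). Lgals3 (-1.59) fell in both lines, by more in P19 cells.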

How the results depend on the processing

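The normexp values in place of the deposited ones left 87 of the 187 genes in the selection. None of the named calls changed direction under an alternative. Counts of members called higher and lower in F9-Sox2 were 25 and 8 on the deposited values, and leaving out 1 array at a time gave 22 to 29 higher and 6 to 8 lower. In P19-Sox2 the fit on only the groups compared gave 11 higher, and leaving out 1 array gave 7 to 13 higher and 8 to 12 lower. Between EpiSox2mE1 and EpiSox2mE2, median scaling gave 4 higher and 5 lower, no background correction gave 4 lower, the fit on only the groups compared gave 2 higher and 0 lower, and leaving out 1 array gave 10 to 16 higher and 2 to 10 lower. For the interaction, leaving out 1 array gave 9 to 11 positive and 21 to 27 negative calls; the cause of these shifts was not tested, beyond the smaller number of arrays. With 1 array left in a group it is assumed to vary like the others.

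Median scaling moved the median of all genes to -0.19 for EpiSox2mE2 against EpiSox2mE1, to -0.11 for P19-Sox2 and to -0.10 for F9-Sox2. Alternatives for the untested differences were chosen after seeing the data: the median gain over members in EpiSox2mL2 ran from 0.35 without background correction to 1.36 on the deposited values. Replicate numbers showed no pairing: deviations from the group means correlated at -0.076 (F9 EC and F9-Sox2), -0.011 (P19 EC and P19-Sox2), 0.001 (F9 EC and P19 EC) and -0.159 (EpiSox2mE1 and EpiSox2mE2), and the replicate block gave 39 higher and 15 lower for F9-Sox2, 17 and 13 for P19-Sox2, 17 and 105 for P19 EC against F9 EC, 12 and 7 for the ESC-medium cultures and 14 and 28 for the interaction. A slide block was not run, because the headers name no slides. Transcripts near background are limited by the signal over background.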
